A study of Cuscuta campestris with 9 samples.

Results

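U4 and U5 are small nuclear RNAs (snRNAs) of the spliceosome, the particle that removes introns from messenger RNA precursors. The 35 intervals named U4 or U5 among the capped snRNAs of the deposited table were described here, 13 of U4 and 22 of U5, out of 94 snRNA intervals and 2535 intervals in all. Short RNAs had been sequenced from end to end in haustoria, the organs with which the dodder Cuscuta campestris invades another plant. Cut shoot tips of the wild-type strain "Dotti" had formed them under far-red light and pressure against agar over 4 days, with no host present. All 9 libraries came from 3 RNA samples of such haustoria, each divided into an untreated portion, a portion treated with decapping enzyme (Dcp) and a portion treated with the pyrophosphohydrolase RppH. Whether separate plants stood behind the 3 RNA samples is not stated in the labels, so the p-values measure the spread between these libraries, which may be technical. The table lists short noncoding RNAs alone, and the labelled tissue was not checked against marker genes.

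U4 base-pairs with U6 and keeps it inactive until U4 is released and the spliceosome is activated. U5 enters the spliceosome together with U4 and U6 in the tri-snRNP, and a loop of U5 holds the exon ends beside each other while they are joined. RNA polymerase II transcribes both, and both carry a trimethylguanosine cap when mature. The library protocol joins adapters to RNAs with a 5′ monophosphate, so a capped RNA becomes visible after an enzyme has trimmed its cap. In the submitters' reading, RNAs that gain with both enzymes probably had a cap, and those that gain with RppH but not Dcp probably had a triphosphate.

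U4 and U5 were a small part of the snRNAs seen. Most U5 copies were not seen, while most U4 copies were. Over the 9 libraries U4 had 720 counts, 0.921% of all snRNA counts, and U5 had 83 counts, 0.106%. Each count is 1 full-length transcript, and levels are given in TPM, which in this table is the count relative to the library total, with no scaling by length. A single count was worth 0.0217 to 0.04 TPM, depending on the library. Of the 13 U4 copies 9 had at least 1 count, of the 22 U5 copies 4 did, and the other 22 copies were at 0 in every library. For comparison, 12 of 43 U1 copies and 3 of 16 U2 copies had counts. For a copy at 0 in all 9 libraries, counting error alone allows up to 0.0314 TPM over the pooled Dcp libraries. Over the pooled RppH libraries it allows up to 0.035 TPM. Over all 9 libraries the limit is 0.0102 TPM, but that pool includes untreated libraries, in which no U4 or U5 copy had counts. No source used here gives the rule for placing reads with several matching copies, so the split of counts between near-identical copies is uncertain for each copy, including those at 0.

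The seen U5 copies had a single length. Each of the 4 U5 intervals of 114 nt had counts, and the 18 others, which were 90 to 107 nt long, had none. Length classes were compared after the values had been seen, and no test was made of them. U4 intervals were 134, 135, 139 or 140 nt long. The 5 copies of 134 nt held 601 counts, in 3 of the 5 copies. All 3 copies of 139 nt had counts, 109 in total, while the 4 copies of 135 nt held 9 counts and the single copy of 140 nt held 1 count. The U4 copies at 0 thus were 2 copies of 134 nt and 2 of 135 nt. U4 copies of the same length could be seen or unseen, whereas in U5 length and detection went together. That link rests largely on 1 copy with 75 of the 83 U5 counts. The other 114-nt copies had 3, 1 and 4 counts, each in a single library.

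**Figure D1:**
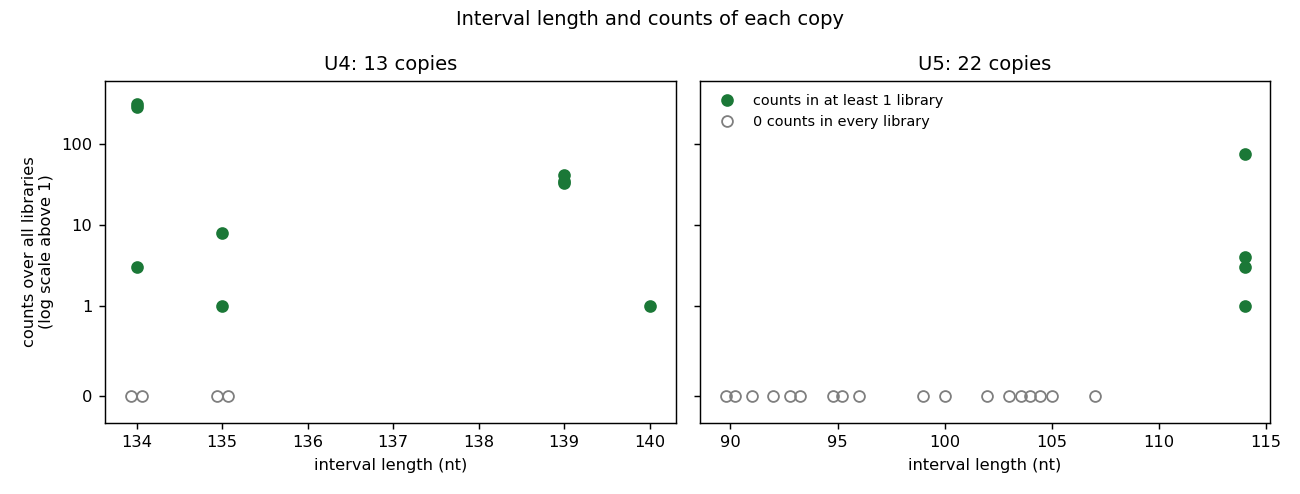
Interval length (nt, x axis) against the counts of each copy over all 9 libraries (y axis, log scale above 1) for the 13 U4 copies (left) and the 22 U5 copies (right), with filled points for copies with counts and open points for copies at 0, spread sideways where they coincide. In U5 the 4 intervals of 114 nt have counts (75 in 1 of them, and 3, 1 and 4 in the others) and the 18 shorter ones are at 0. U4 copies of 134 and 135 nt are found in both sets.

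The copies were spread over 7 scaffolds for each snRNA, and most U5 copies lay in close groups. Of 22 U5 copies 20 had another U5 copy within 10 kb, and the 13 gaps of this kind between adjacent copies were 1135 to 5429 bp long, all between copies on the same strand. Of 13 U4 copies 4 had another within 10 kb, at gaps of 1479 and 2236 bp. The U5 copies with counts lay on scaffolds 31 and 7 only, among the 7 scaffolds with U5. Each of these 2 scaffolds had a 114-nt copy on the plus strand and another on the minus strand, 127 kb apart on scaffold 31 and 96.0 kb apart on scaffold 7. The 3 U5 copies on scaffold 2, the 3 on scaffold 88, the 2 each on scaffolds 55 and 125 and the 1 on scaffold 81 were at 0.

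Each 134-nt U4 copy with many counts had a partner at 0 of the same length and strand on its scaffold. On scaffold 12 the copy with counts (1865644 to 1865777, plus strand) was 348 kb from a copy at 0 (starting at 2213743). On scaffold 99 the copy with counts (530255 to 530388, minus strand) was 339 kb from a copy at 0 (starting at 869606). The 139-nt U4 copies each had a U2 interval on the same strand as their nearest snRNA of another type. These gaps were 6857 bp (minus strand) and 6538 bp (plus strand) on scaffold 23 and 10456 bp on scaffold 346. Of those 3 U2 intervals, the 1 on the plus strand of scaffold 23 had 49 counts and the other two were at 0. The remaining U4 copies had no U1, U2 or U5 interval on their scaffold. Coordinates are counted from 1 on scaffolds of the assembly Ccam0.32, as the scaffold names give it, and no annotation of that assembly beyond the table's own names was used.

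**Figure D2:**
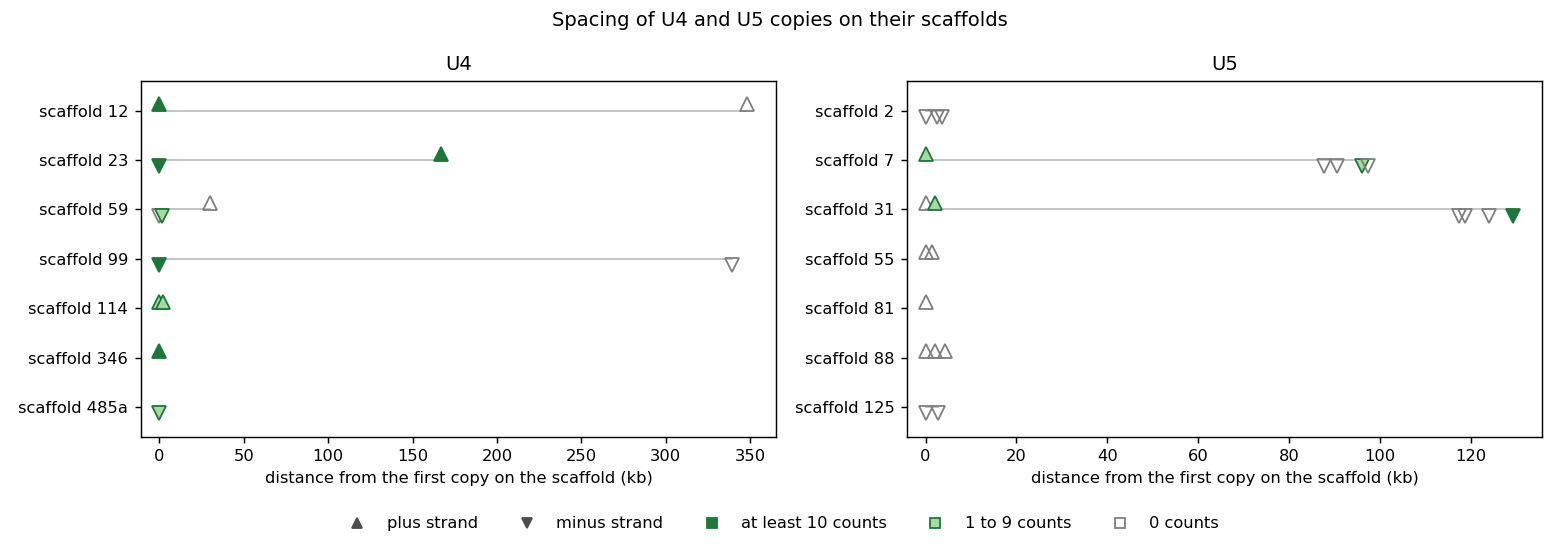
Distance of each U4 copy (left) and U5 copy (right) from the first copy on its scaffold (kb, x axis), 1 line per scaffold, with triangles up for the plus strand and down for the minus strand, dark green for at least 10 counts, light green for 1 to 9 and open for 0. On scaffolds 12 and 99 a U4 copy with many counts and a copy at 0 lie 348 and 339 kb apart, and the U5 copies with counts are the 114-nt copies of scaffolds 7 and 31.

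Untreated RNA gave no U4 or U5 count. The untreated totals of both were 0 in 3 of 3 libraries, which allows up to 0.0264 TPM over the pooled untreated libraries. U4 totalled 5.11, 3.58 and 3.21 TPM after Dcp in RNA samples 1, 2 and 3, and 4.81, 2.96 and 4.32 TPM after RppH. The groups after the enzymes overlapped and both lay above every untreated library. Mean U4 with Dcp was 3.96 ± 1.01 TPM, and with RppH it was 4.03 ± 0.955 TPM (SD, n = 3 each), at least 147-fold and at least 155-fold above untreated RNA, when pooled rates were set against a floor of 3 counts over the untreated group. Here and below, "at least" refers to that floor alone and takes no account of counting error or spread in the treated libraries. U5 totalled 0.896, 0.245 and 0.0345 TPM after Dcp and 0.656, 0.120 and 0.839 TPM after RppH. Each treated library held at least 1 U5 count, and the libraries of 1 treatment differed more from each other than the treatments did. Mean U5 with Dcp was 0.392 ± 0.449 TPM, and with RppH it was 0.538 ± 0.374 TPM (SD, n = 3 each), at least 13.5-fold and at least 21.7-fold above untreated RNA. Dcp replicate 1 held 23 of the 34 U5 counts after Dcp, and without it the Dcp mean was 0.14 TPM. In bulk RNA of this kind, fewer cells with a transcript and less of it per cell cannot be told apart.

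Untreated libraries were thin in snRNA altogether. They held 72 snRNA counts, 60 of U1 and 12 of U2, against 37915 after Dcp and 40147 after RppH. A count of 0 among 72 allows a share of up to 4.17% for U4, while U4 made up 9.83 ± 1.02 of every 1000 snRNA counts after Dcp and 9.15 ± 1.85 after RppH (SD, n = 3 each). The gain of U4 and U5 was therefore measurable against the library total, and at this depth no share of U4 or U5 among the untreated snRNAs could be detected that was as low as after the enzymes. U5 made up 0.882 ± 0.941 of every 1000 snRNA counts after Dcp and 1.08 ± 0.604 after RppH (SD, n = 3 each).

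The 134-nt copies on scaffolds 12 and 99 carried 83.1% of all U4 counts. The copy on scaffold 12 had 43, 53 and 37 counts after Dcp in RNA samples 1 to 3 and 76, 34 and 67 counts after RppH. Its level was 1.68, 1.30 and 1.28 TPM after Dcp and 2.77, 1.36 and 2.01 TPM after RppH. It was higher after RppH than after Dcp within each of the 3 RNA samples, though the groups overlapped. The copy on scaffold 99 had 52, 64 and 36 counts after Dcp and 53, 33 and 50 counts after RppH. Its level was 2.03, 1.57 and 1.24 TPM after Dcp and 1.93, 1.32 and 1.50 TPM after RppH, so the groups covered nearly the same range. After Dcp the copies on scaffolds 12 and 99 stood at 1.42 ± 0.225 and 1.61 ± 0.395 TPM, and after RppH at 2.05 ± 0.704 and 1.58 ± 0.313 TPM (SD, n = 3 each). After RppH the copy on scaffold 12 was higher than the copy on scaffold 99 in each of the 3 RNA samples. After Dcp it was lower in RNA samples 1 and 2 and slightly higher in RNA sample 3. The order of the mean levels was thus not the same in both treatments, and the difference between the copies was not tested.

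The 139-nt copies were several times lower. On the minus strand of scaffold 23 (878570 to 878708) U4 had 6, 9 and 10 counts after Dcp and 1, 3 and 6 counts after RppH. Its levels of 0.234, 0.220 and 0.345 TPM after Dcp all lay above its levels of 0.0364, 0.120 and 0.18 TPM after RppH. The plus-strand copy of scaffold 23 (1045326 to 1045464) had 12, 12 and 7 counts after Dcp and 1, 0 and 9 counts after RppH. It was at 0.468, 0.294 and 0.241 TPM after Dcp and at 0.0364, 0 and 0.27 TPM after RppH, and RNA sample 3 alone was higher after RppH. On scaffold 346 (49803 to 49941, plus strand) there were 16, 3 and 3 counts after Dcp and 0, 4 and 7 counts after RppH, or 0.624, 0.0735 and 0.103 TPM and 0, 0.160 and 0.210 TPM. Here RNA sample 1 held most of the Dcp counts and none of the RppH counts. Among the 3 copies the group means were 0.266 to 0.334 TPM after Dcp and 0.102 to 0.123 TPM after RppH, and these neighbours in level did not differ beyond their spread.

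U5 rested on 1 copy, whose level varied widely between libraries. The 114-nt copy on the minus strand of scaffold 31 (1025204 to 1025317) held 90.4% of the U5 counts, with 23, 7 and 1 counts after Dcp and 17, 3 and 24 counts after RppH. Its level was 0.896, 0.171 and 0.0345 TPM after Dcp and 0.619, 0.120 and 0.719 TPM after RppH. RNA sample 1 was high and RNA sample 2 low after both enzymes, while RNA sample 3 was lowest after Dcp and highest after RppH. The other 114-nt copies were near the limit of counting. On the plus strand of scaffold 31 (897906 to 898019) there were 3 counts, all in Dcp replicate 2. On scaffold 7 the plus-strand copy (1963318 to 1963431) had 1 count in RppH replicate 1, and the minus-strand copy (2059413 to 2059526) had 4 counts in RppH replicate 3. Each of these 3 copies appeared in a single library, so no response to either enzyme can be read from them.

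**Figure D3:**
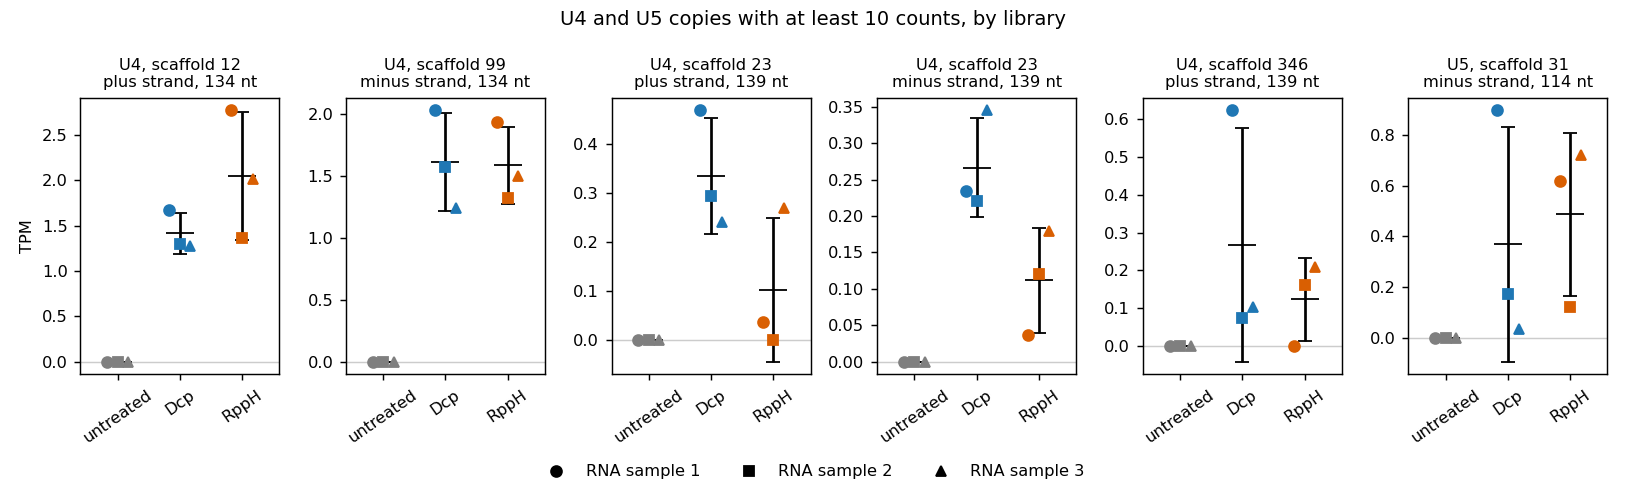
Level in TPM (y axis, a separate scale per panel) of the 6 U4 and U5 copies with at least 10 counts in the 9 libraries, by treatment (x axis), with a symbol per RNA sample and the mean ± SD of 3 libraries in black. Untreated libraries are at 0 in every panel, the 134-nt U4 copies reach 1.24 to 2.77 TPM after the enzymes, and the U5 copy runs from 0.0345 to 0.896 TPM.

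The low-count U4 copies were seen in 1 or 2 libraries each. On scaffold 114 the 134-nt copy (46948 to 47081, plus strand) had 2 counts in Dcp replicate 2 and 1 count in RppH replicate 1. Its 135-nt neighbour (49318 to 49452, plus strand) had 3 counts in Dcp replicate 2 and 5 counts in RppH replicate 3. The copies on scaffold 59 (561127 to 561261, minus strand) and scaffold 485a (30818 to 30957, minus strand) had 1 count each, both in Dcp replicate 1. Together the 7 U4 and U5 copies with 1 to 9 counts held 21 counts. Of the 13 copies seen, 8 had counts after both enzymes, 3 after Dcp alone and 2 after RppH alone, and those 5 had at most 4 counts each.

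Per unit of length the leading copies stood in the order U1, U2, U4 and U5. Over the pooled Dcp and RppH libraries the most abundant U1 copy, whose RNA pairs with 5′ splice sites, was at 224 TPM per 100 nt, and the most abundant copy of U2, which pairs with the branch site, was at 12.3 TPM per 100 nt. U4 reached 1.28 and 1.19 TPM per 100 nt on scaffolds 12 and 99, and U5 reached 0.363 TPM per 100 nt on scaffold 31. A full-length read counts a transcript once whatever its length, so the undivided TPM gives the same order.

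The 6 copies that could be tested were at 0 in untreated RNA and had counts in every Dcp library. Every locus whose counts summed to at least 10 entered 1 fit of the whole table, 354 loci in all, of which 5 were U4 copies and 1 was a U5 copy. All 6 were higher after Dcp than in untreated RNA (edgeR quasi-likelihood test, two-sided, Benjamini-Hochberg adjusted p under 0.05), where 13.6% of the tested loci were called higher and 0 lower. For each of the 6, every Dcp library also lay above every untreated library, which held for 11.6% of the tested loci. Having no untreated counts, these copies reached the minimum of 10 counts through treated libraries. They therefore had to differ from at least 1 treated group. With untreated RNA at 0, 1 count in each Dcp library is enough to separate the groups. The count of 6, this separation and the p-values below are thus not independent support for a rise. Over the pooled libraries U4 was at least 52.8-fold higher on scaffold 12 (edgeR adjusted p = 2.53e-06) and at least 60.4-fold higher on scaffold 99 (edgeR adjusted p = 1.81e-06). Both were above untreated RNA in 3 of 3 RNA samples, which gives the direction alone. Pooled in the same way, the 139-nt copies were at least 8.74-fold to at least 12.3-fold higher (edgeR adjusted p = 0.00263 to 0.00668). Their direction was also the same in 3 of 3 RNA samples. The U5 copy on scaffold 31 was at least 12.3-fold higher (edgeR adjusted p = 0.00195). Its Dcp counts were 23, 7 and 1 in RNA samples 1 to 3, so the rise in RNA sample 3 was of 1 count only. A fit with RNA sample as a block passed 4 of the 6, beside 30 of all 354 loci, where the fit without it passed 48. The minus-strand copy of scaffold 23 then had an edgeR adjusted p of 0.0587 (0.00369 to 0.0842 over all alternatives) and the copy on scaffold 346 one of 0.0862 (0.00428 to 0.323). Without RNA sample 1 the count fell to 2, beside 17 of 286 tested loci called higher. Without RNA sample 2 it was 3, beside 20 of 308 loci, and without RNA sample 3 it was 4, beside 43 of 250 loci. Without Dcp replicate 1 alone, 32 of 341 loci were called higher. Neither the copy on scaffold 346 (edgeR adjusted p = 0.126) nor the U5 copy (0.0553, with 0.000768 to 0.241 over all alternatives) then passed.

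After RppH the same limit holds, since the 6 copies entered the fit through treated libraries alone. All 6 were called higher than in untreated RNA (edgeR), where 91.2% of the tested loci were called higher and 0 lower, and 6 of 6 is near that background. Over the pooled libraries U4 was at least 78.2-fold higher on scaffold 12 (edgeR adjusted p = 2.78e-07) and at least 60.1-fold higher on scaffold 99 (edgeR adjusted p = 8.11e-07). Both were above untreated RNA in 3 of 3 RNA samples, which gives the direction alone. Against the floor of 3 untreated counts alone, the 139-nt copies were at least 4.42-fold to at least 4.86-fold higher (edgeR adjusted p = 0.0069 to 0.00873). Of these, the minus-strand copy of scaffold 23 had RppH counts in 3 of 3 RNA samples and the other two in 2 of 3. Over the pooled libraries U5 on scaffold 31 was at least 19.5-fold higher (edgeR adjusted p = 0.000129). It had RppH counts in 3 of 3 RNA samples, with 3 counts in RNA sample 2. Groups did not overlap for 4 of the 6, against 73.4% of the tested loci. A fit blocked by RNA sample passed 5 of the 6, beside 203 of all 354 loci where 323 passed without the block, and the plus-strand copy of scaffold 23 did not (edgeR adjusted p = 0.0737, with 0.00755 to 0.266 over all alternatives). Without RNA sample 3 the count was 3, beside 206 of 250 tested loci called higher, and without RNA sample 2 it was 5, beside 279 of 308. Without RppH replicate 3 alone the plus-strand copy of scaffold 23 had an edgeR adjusted p of 0.225, where 221 of 256 loci were called higher. TMM and median of ratios scaling, which take the tested loci as their reference, each left 2 of the 6 called higher, the U4 copies on scaffolds 12 and 99, beside 66 and 67 of all 354 loci higher and 8 and 6 lower.

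On the scale of library totals, no U4 or U5 copy differed between the enzymes past the threshold. At an edgeR adjusted p under 0.05, 61% of the 354 tested loci were called higher after RppH than after Dcp and 0 lower. None of the 6 copies was called in either direction (edgeR, with 0 of the 6 at an unadjusted p under 0.05, and 0 called by DESeq2). The median log2 difference of RppH from Dcp was −0.53 over the 6 copies and 3.34 over all 354 loci. U4 differed by 0.53 on the log2 scale on scaffold 12 (SE 0.852, edgeR adjusted p = 0.581) and by −0.02 on scaffold 99 (SE 0.854, edgeR adjusted p = 0.984). For U5 on scaffold 31 the log2 difference was 0.44 (SE 0.997, edgeR adjusted p = 0.695). Under TMM and median of ratios scaling the direction turned on scaffold 12, to −1.73 and −1.62, and for U5, to −1.71 and −1.63, without passing the threshold, and on scaffold 99 the difference became −2.24 and −2.13 and passed (edgeR adjusted p = 0.0211 and 0.0392, with 0.0211 to 0.999 over all alternatives). Groups that miss the threshold are not thereby shown to be alike. At 0 of the 6 copies did every RppH library lie above every Dcp library, which held for 63% of the tested loci. The ratio of pooled rates of RppH to Dcp was 1.48 on scaffold 12, with a 95% counting interval of 1.18 to 1.87, it was 0.996 (0.784 to 1.26) on scaffold 99, and for U5 it was 1.58 (0.975 to 2.59). These exact intervals cover counting error only and are narrower than the spread between libraries.

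The 139-nt U4 copies had the lowest ratios of RppH to Dcp among the 6. Their ratios were 0.359 (95% counting interval 0.157 to 0.752) and 0.445 (0.191 to 0.96) on the plus and minus strands of scaffold 23 and 0.557 (0.244 to 1.20) on scaffold 346. In the fit the log2 differences were −1.60 (SE 1.15, edgeR adjusted p = 0.205), −1.20 (SE 1.17, edgeR adjusted p = 0.355) and −1.04 (SE 1.18, edgeR adjusted p = 0.424), and 0 of the 3 passed. Under TMM both copies of scaffold 23 passed, at −3.85 on the plus strand (edgeR adjusted p = 0.00732, with 0.00732 to 0.578 over all alternatives) and −3.44 on the minus strand (0.0237, with 0.0237 to 0.64 over all alternatives). Under median of ratios they also passed, at −3.77 and −3.34. Without RppH replicate 3 the plus-strand difference was −3.89 on the scale of library totals and did not pass (edgeR adjusted p = 0.0569). The minus-strand copy of scaffold 23 was the 1 locus of the 354 tested, or 0.282%, at which every RppH library lay below every Dcp library. The difference on scaffold 346 rested on Dcp replicate 1, without which it was 0.49 (edgeR adjusted p = 0.774, with 0.0541 to 0.807 over all alternatives). As a share of U4 counts within a library, which no scaling alters, the 139-nt copies made up 26.0%, 16.4% and 21.5% after Dcp and 1.52%, 9.46% and 15.3% after RppH in RNA samples 1 to 3. The groups did not overlap, but their nearest libraries were close, Dcp replicate 2 at 16.4% and RppH replicate 3 at 15.3%. The exact 95% intervals of these libraries overlapped widely (10.8 to 23.5% and 9.83 to 22.2%). In Dcp replicate 1, 16 of the 34 counts from 139-nt copies came from scaffold 346. The mean share was 21.3 ± 4.76% after Dcp and 8.75 ± 6.91% after RppH (SD, n = 3 each). The share was lower after RppH in 3 of 3 RNA samples, by the widest margin in RNA sample 1, where 2 of 132 U4 counts were from 139-nt copies (exact 95% interval 0.184 to 5.37%). Copies were sorted by length after their values had been seen, and the share was not tested.

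**Figure D4:**
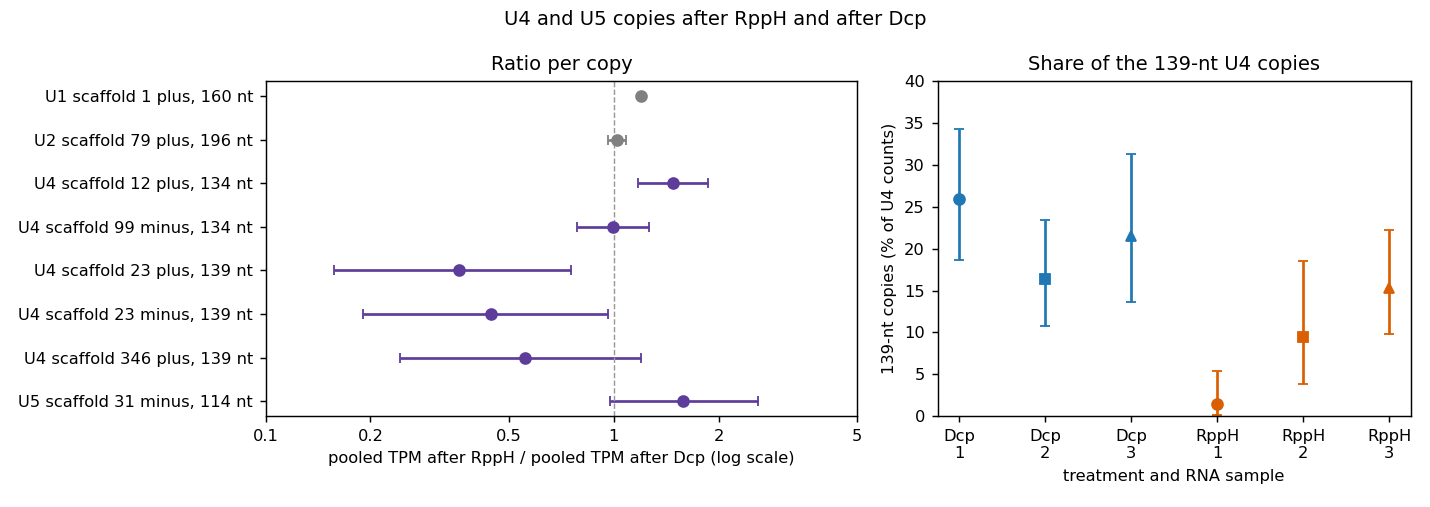
Left, ratio of pooled TPM after RppH to pooled TPM after Dcp (x axis, log scale) with exact 95% counting intervals for the leading U1 and U2 copies (grey) and the 6 tested U4 and U5 copies (purple). Right, share of the 139-nt copies in the U4 counts of each treated library (%, y axis) with exact 95% intervals, which is 16.4 to 26.0% after Dcp and 1.52 to 15.3% after RppH.

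U1 and U2, the other spliceosomal snRNAs in the table, were raised by the enzymes too. After Dcp 7 of 9 tested U1 copies and 3 of 3 tested U2 copies were called higher, and after RppH 9 of 9 and 3 of 3, with 0 lower in either case (edgeR). Of all 354 tested loci 13.6% were called higher after Dcp and 91.2% after RppH, so the RppH counts are near that background. Apart from the leading U1 and U2 copies, they reached the minimum of 10 counts only with treated libraries. For those copies the calls are not independent support for a rise. Between the enzymes 0 of the 12 U1 and U2 copies were called, beside 61% of all tested loci. The ratio of RppH to Dcp group means was 1.16 for the U1 total, 0.95 for U2, 1.02 for U4 and 1.37 for U5. These ratios share their libraries, and the differences between the snRNAs were not tested. TMM and median of ratios moved the scale of RppH against Dcp by −2.24 and −2.15 on the log2 scale. On those scales 12 and 11 of all 354 loci were called lower after RppH than after Dcp and 10 and 10 higher. In each case 3 of the 6 U4 and U5 copies were among the lower ones, namely U4 on scaffold 99 and both copies on scaffold 23, and 6 of 9 U1 and 2 of 3 U2 copies were lower as well. The median of the 6 copies was then −2.65 and −2.58, and that of all 354 loci 1.25 and 1.33.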

How the data were processed

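For each interval and library the authors deposited a raw count of full-length transcripts and a TPM value, both per the file headers. The TPM equalled the count divided by 1 constant per library (largest relative deviation 2.7e-15), and the total so recovered, 24974484 to 46034864, was taken as the library total. Tools named in the submitters' processing notes, with no version, are bedtools, SAMtools, Bowtie2 and cutadapt. Forms of 1 tRNA gene were added up, giving 716 loci, and the 354 with at least 10 counts were tested with edgeR 4.0.16 (R 4.3.3), with library totals as offsets and 9 libraries in 1 fit. Each SE is the absolute log2 value divided by the square root of F. The edgeR test of RppH against untreated RNA was checked on simulated data with 1 fixed spread for all loci. The other comparisons and settings were not checked in this way. A copy at 0 in a group was compared with a floor of 3 counts over that group, and a fold so obtained is not a confidence limit.

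Copies with at least 10 counts are named with their tests, and those with 1 to 9 counts with their counts. Members and lists were chosen with earlier results of these data known. Equal library numbers mark 1 shared RNA sample per the labels and therefore pair the libraries. Their deviations from group means correlated at −0.27 to 0.203. Alternatives were TMM, median of ratios, DESeq2 1.42.0, other filters, the RNA sample as a block and leaving out libraries. No sequence of these copies was used here.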

Additional observations from a re-analysis of the deposited data

How the results depend on the processing

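Under the replicate block by RNA sample, 4 of 6 copies were called after Dcp, 5 after RppH and 0 between the enzymes. Over all 354 loci the block called 30, 203 and 64. TMM and median of ratios scaling gave 6 copies after Dcp, and each gave 2 after RppH and 3 (all lower) between the enzymes. After Dcp both scalings called 33 of all 354 loci, and their other counts over all loci are given above. TMM and median of ratios moved the scale by −0.92 and −0.95 on the log2 scale for Dcp against untreated RNA and by −3.16 and −3.10 for RppH against untreated RNA. DESeq2 called 6, 6 and 0 of the 6 copies, beside 51, 229 and 113 of all 354 loci. Without a filter edgeR called 6, 6 and 0 of the 13 copies then tested, beside 39, 315 and 170 of 650 loci. Under the filter of at least 1 TPM in at least 3 libraries 2 copies could be tested, and 2 were called after each enzyme. Of the 34 intervals tested there, 20 were called higher after Dcp and 33 after RppH. Leaving out 1 library or 1 RNA sample gave 2 to 6 calls after Dcp, 3 to 6 after RppH and 0 between the enzymes. Over all loci these fits called 17 to 57, 206 to 319 and 52 to 223 higher. Where a call was lost the cause was not tested, beyond the smaller number of libraries or copies that an alternative itself sets.

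Between the enzymes, U4 on scaffold 12 turned from 0.53 to −1.73 (TMM) and −1.62 (median of ratios), and U5 on scaffold 31 from 0.44 to −1.71 and −1.63. Leaving out libraries gave −4.08 to −0.92 for the plus-strand U4 copy of scaffold 23, −0.19 to 0.17 for U4 on scaffold 99, −2.06 to 1.05 on scaffold 346 and −0.48 to 2.15 for U5. Without its most abundant copy the U4 total was 2.55 TPM after Dcp and 1.98 TPM after RppH, and the U5 total was 0.0245 TPM after Dcp and 0.0521 TPM after RppH. Per 1000 snRNA counts the U4 totals were 9.83 and 9.15 and the U5 totals 0.882 and 1.08. Copies with 1 to 9 counts were too shallow for a statement on either enzyme.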
